A study of Mus musculus with 6 samples.

Results

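Cholesterol efflux, LXR and lysosomal lipid handling were followed through 10 genes, Abca1, Abcg1, Nr1h2, Nr1h3, Mylip, Apoe, Npc1, Npc2, Lipa and Soat1, matched by symbol in the deposited tables. All 10 were found among the 56092 gene symbols of the count table. RNA was sequenced from the mouse macrophage line RAW264.7, which carried a control construct (shNC) or a Trem2 knockdown (shTrem2). The labels call shNC an empty vector, while the methods list a negative control hairpin under that name. The methods describe both as stable lines made with a lentiviral vector with GFP and puromycin selection, and do not name which of the 2 Trem2 shRNAs was used for these libraries. Both groups were given 20 ng/mL IL-4, a cytokine that drives alternative activation, for 24 hours, and were then cultured with freeze-thaw debris of TCMK-1 kidney tubular cells for 24 hours. The number of lines per group is not stated, and differences between lines and differences from the knockdown cannot be told apart. There were 3 libraries per group and none without IL-4 or debris. Nothing states that the 3 libraries of a group came from separate cultures, so p-values measure the spread between these libraries, which may be technical. RNA was measured in bulk, where fewer cells of a kind and less RNA per cell cannot be told apart.

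Macrophages that take up dead cells receive cholesterol and other lipids through the endolysosome. There the acid lipase Lipa frees cholesterol from its esters, Npc2 and Npc1 pass it out of the lysosome, and Soat1 in the endoplasmic reticulum esterifies the excess for storage in lipid droplets. Oxysterols activate the liver X receptors (LXRs) Nr1h3 (LXR alpha) and Nr1h2 (LXR beta), which with an RXR partner induce the exporters Abca1 and Abcg1, the acceptor apolipoprotein Apoe, and Mylip, a ubiquitin ligase that marks lipoprotein receptors for degradation. Apoe is also a ligand of TREM2.

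The depth was 15876061 to 18088372 counts with a gene symbol in each shNC library and 19358113 to 19655158 in each shTrem2 library. The targeted gene, Trem2, was lower in all 3 shTrem2 libraries, at 69.3 ± 9.41 CPM against 126.6 ± 15.4 CPM for shNC (SD, n = 3 each), where CPM is the count scaled to the TMM-adjusted library size. Its log2 fold change was -0.87 on counts and -2.06 with an offset for effective transcript length. Of 9 macrophage markers, 8 were tested, and the group means of Csf1r, Cd68, Itgam, Ptprc and Lyz2 lay between 270.3 CPM (Itgam in shTrem2) and 7357 CPM (Lyz2 in shTrem2). Arg1, whose protein defines the Arg1+ state these cells are named for, had between 1 and 3 counts in each of the 6 libraries. Mrc1, also on the marker list, had few counts in shNC (5, 14 and 6) and more in shTrem2 (62, 71 and 56). Mrc1 passed the filter on low counts only through shTrem2, where it was high. Its log2 fold change of 2.76 (adjusted p = 1.22e-05 from edgeR) is therefore given without a rank. The summed level of the 9 markers was between 4967 and 5877 CPM in shNC and between 9958 and 11080 CPM in shTrem2. Most of that gap was Lyz2, at 2802 ± 355 and 7357 ± 544 CPM (SD, n = 3 each), and the markers moved both ways: of the 8 tested, 6 were higher and 2 lower at an FDR under 0.05, the lower being Itgam (log2 fold change -0.78) and Adgre1 (-0.56). Their part in the results was not tested. Of 14 tubular epithelial markers, 8 were at 0 in every library, among them Epcam, Cdh1, Krt8, Krt18 and Krt19. The other markers except Aqp1 reached at most 8 counts, with a sum between 0.604 and 0.683 CPM in shNC and between 0.206 and 0.261 CPM in shTrem2. Aqp1 had 12, 6 and 5 counts in shNC and 38, 50 and 39 in shTrem2.

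The question was how the macrophage's cholesterol route differed between knockdown and control cells after debris. Nr1h3 rose, Mylip and Apoe fell, and the exporter Abcg1, the lysosomal transporter Npc1 and the esterifying enzyme Soat1 were modestly higher, while Lipa and Nr1h2 were modestly lower. Npc2 did not pass the test and Abca1 was near the detection limit in both groups. Of the 10 genes, 9 passed the filter on low counts and were tested with edgeR's quasi-likelihood test, and 8 (88.9%) had a Benjamini-Hochberg FDR under 0.05, 4 higher and 4 lower in shTrem2. Across all 13528 tested genes the share with an FDR under 0.05 was 57.4%. Adding the fold change over 1.5 used for DEGs left 2 of the 9, Nr1h3 (higher) and Mylip (lower), or 22.2% against 21.8% of all tested genes. The CPM values of the groups did not overlap for 8 of the 9, against 63.8% of all tested genes. The median absolute log2 fold change of the 9 was 0.30, and that of all tested genes was 0.31.

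**Figure D1:**
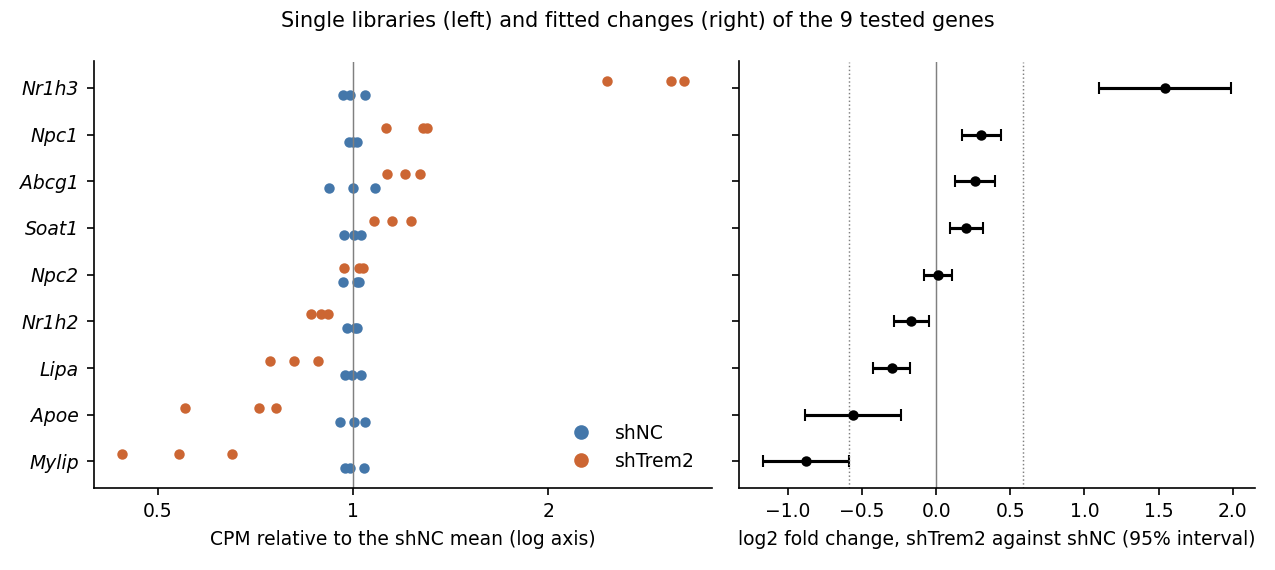
Left, CPM of each library divided by the shNC mean of the gene (log axis), 3 points per group. Right, log2 fold change of shTrem2 against shNC from edgeR with its 95% interval, with dotted lines at 1.5-fold. Nr1h3 (1.55) lies beyond the upper line and Mylip (-0.88) beyond the lower, Apoe (-0.56) lies just inside it, and the interval of Npc2 includes 0.

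Levels were compared between genes on the FPKM scale, which is per length. In shNC the order of mean FPKM was Lipa (175), Npc2 (136), Soat1 (58.5), Nr1h2 (50.8), Abcg1 (25.5), Npc1 (20.2), Apoe (10.3), Mylip (5.44), Nr1h3 (1.25) and Abca1 (0.05). The libraries of neighbours in this order did not overlap in shNC. In shTrem2 the libraries of Lipa, between 128 and 150 FPKM, overlapped those of Npc2, between 128 and 136, and Nr1h3 stood above Mylip, with overlapping libraries.

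**Figure D2:**
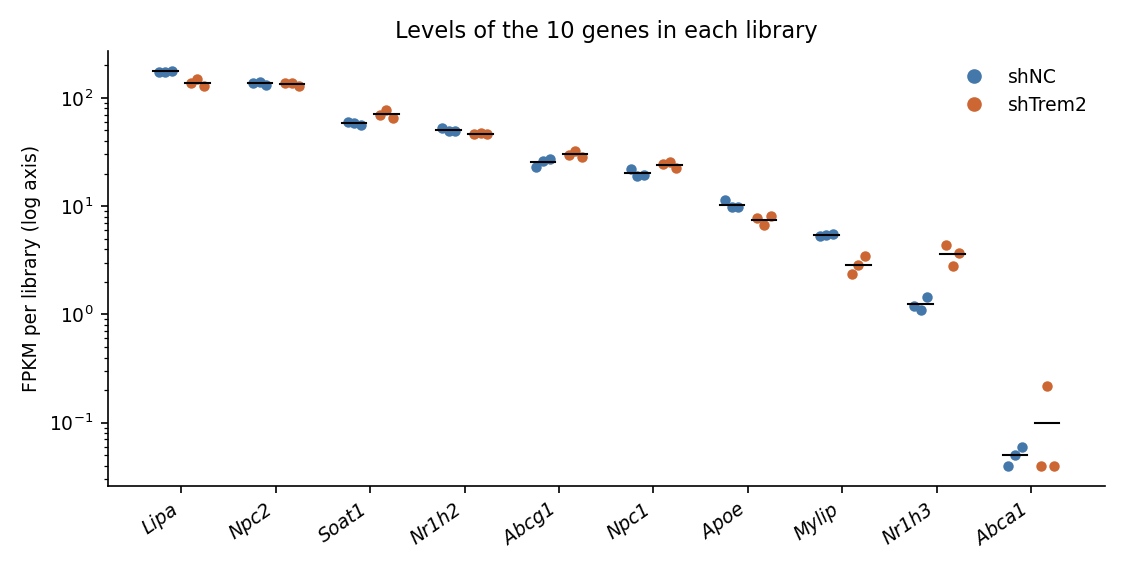
FPKM of each of the 10 genes in each library (log axis), 3 points per group, with a bar at the group mean. The genes span from 0.05 (Abca1) to 175 (Lipa) in shNC, and the 3 shTrem2 points of Nr1h3 lie above and those of Mylip below the shNC points.

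Of the receptors, Nr1h3 rose and the fall of Nr1h2 did not hold under every alternative. Nr1h3 (ENSMUSG00000002108) had 27, 31 and 33 counts in the shNC libraries and 103, 82 and 109 in the shTrem2 libraries, or 1.68, 1.72 and 1.81 CPM against 5.37, 4.28 and 5.61 CPM. Every shTrem2 library was more than 2-fold above every shNC library. This 2.92-fold difference corresponds to a log2 fold change of 1.55 (standard error 0.21; edgeR, adjusted p = 2.43e-05), and over the alternative fits it ranged from 1.03 to 1.66. Nr1h2 (ENSMUSG00000060601), the more abundant receptor, was measured at 67.0, 64.9 and 67.3 CPM in shNC and at 59.4, 60.9 and 57.2 CPM in shTrem2. All 3 shTrem2 libraries were lower, by a small margin (log2 fold change -0.17, adjusted p = 0.0170 from edgeR). This call was lost with limma on FPKM (adjusted p = 0.0874 and 0.0884 with pseudocounts of 1 and 0.1), with the effective-length offset (-0.09, adjusted p = 0.285 from edgeR) and without shTrem2 replicate 1 (adjusted p = 0.0528 from edgeR). The FPKM ratio of Nr1h3 to Nr1h2 was 0.0248 ± 0.00422 in shNC and 0.0779 ± 0.0180 in shTrem2 (SD, n = 3 each), so Nr1h2 remained the more abundant receptor transcript in all 6 libraries.

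Promoter windows are shown for the receptor that rose, the exporter near the detection limit and the ligase that fell. These are an LXR and LXR target genes, of which Abca1 did not pass the filter on low counts. Each window runs from 250 bases before to 50 bases after a RefSeq start site, read 5′ to 3′ on the gene's strand in build GRCm38.p6, and is separate from the GRCm39 build of the deposited data. Windows of 8 of the 10 genes were searched, Abcg1 and Npc1 not among them. Capitals mark a relaxed LXR element (GGTNA, then 5 bases of any kind, then GGTCA) on either strand, an E-box CACGTG, or TATAAA on either strand. The Nr1h3 window is chr2:91195067-91195366 (minus strand), the Abca1 window chr4:53159846-53160145 (minus strand) and the Mylip window chr13:45389492-45389791 (plus strand).
Nr1h3: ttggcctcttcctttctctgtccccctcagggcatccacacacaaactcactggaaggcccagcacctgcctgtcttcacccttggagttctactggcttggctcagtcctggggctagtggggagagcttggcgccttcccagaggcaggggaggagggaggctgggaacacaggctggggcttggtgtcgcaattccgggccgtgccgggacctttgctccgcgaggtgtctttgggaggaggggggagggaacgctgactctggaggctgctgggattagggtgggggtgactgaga
Abca1: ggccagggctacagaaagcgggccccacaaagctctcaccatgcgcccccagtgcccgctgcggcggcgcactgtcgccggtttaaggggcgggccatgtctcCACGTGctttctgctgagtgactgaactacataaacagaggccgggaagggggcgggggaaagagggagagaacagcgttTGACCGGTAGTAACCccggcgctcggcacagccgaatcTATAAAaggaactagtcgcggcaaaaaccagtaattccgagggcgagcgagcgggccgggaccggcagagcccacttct
Mylip: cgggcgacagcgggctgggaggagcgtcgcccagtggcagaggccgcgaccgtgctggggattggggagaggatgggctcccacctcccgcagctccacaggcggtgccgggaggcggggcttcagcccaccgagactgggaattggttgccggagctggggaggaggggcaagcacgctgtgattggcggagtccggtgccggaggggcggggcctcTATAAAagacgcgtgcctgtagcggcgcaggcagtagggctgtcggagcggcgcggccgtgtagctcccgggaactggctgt
The Abca1 window held the relaxed element on the reverse strand, with its first letter 67 bases before the start site, an E-box 147 bases before and TATAAA 29 bases before. The element was in 0.207% of 32851 promoter windows, and its letters were chosen with the Abca1 window in view, so the match supports nothing. E-boxes were in 7.15% and TATAAA in 13.6% of windows. The Mylip window held TATAAA 32 bases before the start site, and the Nr1h3 window held none of the 3 motifs. The stricter repeat of AGGTCA with 4 bases between its copies was in 0.0152% of windows and in none of the 11 windows searched for these genes. A match is a description of letters, and no binding was measured.

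The transcripts of the efflux machinery were those of both exporters and the acceptor Apoe; cholesterol efflux itself was not measured. Abca1 (ENSMUSG00000015243), which loads cholesterol onto lipid-poor apolipoproteins, had 6, 9 and 11 counts in shNC and 8, 14 and 7 in shTrem2. The groups overlapped, and the gene did not pass the filter on low counts. Without that filter its log2 fold change was 0.02 with a 95% interval from -1.09 to 1.12 (adjusted p = 0.982 from edgeR), so a difference of 2-fold in either direction was not detectable at this depth. On the FPKM scale it was listed at 0.04, 0.05 and 0.06 in shNC and at 0.04, 0.22 and 0.04 in shTrem2. The value of 0.22 belongs to shTrem2 replicate 2, where 1.41 estimated counts were assigned to a row that was at 0 in the other 5 libraries.

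Abcg1 (ENSMUSG00000024030), which exports cholesterol to mature HDL, was the more abundant of the exporter transcripts. Its values were 125.6, 136.8 and 147.7 CPM for the shNC libraries and 164.6, 173.6 and 154.3 CPM for the shTrem2 libraries. The lowest shTrem2 library lay above the highest shNC library. The fitted rise was modest (log2 fold change 0.26, standard error 0.06, adjusted p = 0.00242 from edgeR). Apoe (ENSMUSG00000002985) was at 8.69, 8.37 and 7.97 CPM in shNC and at 6.36, 4.59 and 5.97 CPM in shTrem2, all 3 below the shNC range. Its log2 fold change of -0.56 (standard error 0.15, adjusted p = 0.00568 from edgeR) is a 1.48-fold fall, just under the fold criterion for a DEG. Without shNC replicate 3 it was -0.59, without shTrem2 replicate 1 -0.65 and without shTrem2 replicate 3 -0.61, each past 1.5-fold. Without shTrem2 replicate 2, the lowest library, it was -0.43.

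Mylip (ENSMUSG00000038175), the ligase for lipoprotein receptors, showed the largest fall of the 9 tested genes. It was measured at 14.4, 14.6 and 15.4 CPM in shNC and at 6.51, 7.98 and 9.62 CPM in shTrem2. The highest shTrem2 library was well below the lowest shNC library. This 1.84-fold difference corresponds to a log2 fold change of -0.88 (standard error 0.13; edgeR, adjusted p = 7.88e-05), and the alternative fits gave -1.04 to -0.74. Among the receptors whose protein Mylip can mark for degradation, Lrp8 had a log2 fold change of -0.16 and Vldlr was at 0 counts in every library. Mylip acts on receptor protein, which was not measured here.

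In the lysosome, the lipase fell and the membrane transporter rose. Lipa (ENSMUSG00000024781) was at 447.7, 458.3 and 473.6 CPM in shNC and at 372.5, 405.5 and 342.1 CPM in shTrem2, with no overlap. The fall was 1.23-fold (log2 fold change -0.30, standard error 0.06; edgeR, adjusted p = 5.07e-04). Npc1 (ENSMUSG00000024413), the transporter of the lysosomal membrane, was at 69.5, 68.5 and 67.5 CPM in shNC and at 87.8, 88.9 and 77.1 CPM in shTrem2. All shTrem2 libraries were higher, by 1.23-fold in the fit (log2 fold change 0.30, adjusted p = 7.86e-04 from edgeR). Npc2 (ENSMUSG00000021242), the soluble protein that hands cholesterol to Npc1, was at 397.4, 399.7 and 378.2 CPM in shNC and at 400.0, 405.6 and 379.9 CPM in shTrem2. These values overlapped, and the log2 fold change was 0.01 with a 95% interval from -0.09 to 0.11 (edgeR, adjusted p = 0.833).

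Soat1 (ENSMUSG00000026600), which re-esterifies cholesterol, was at 215.9, 202.9 and 210.4 CPM in shNC and at 241.2, 257.3 and 226.1 CPM in shTrem2. The groups did not overlap, and the rise was 1.15-fold (log2 fold change 0.20, standard error 0.05, adjusted p = 0.00433 from edgeR). With the effective-length offset the log2 fold change was 0.31. The esterifying and hydrolysing enzymes can be set against each other within a library: the FPKM ratio of Soat1 to Lipa was 0.349, 0.336 and 0.317 in shNC and 0.508, 0.516 and 0.512 in shTrem2. The ratio of Npc1 to Npc2 was 0.148 ± 0.0108 in shNC and 0.182 ± 0.00735 in shTrem2 (SD, n = 3 each). For these and the ratio of the receptors, 3 ratios in all, the groups did not overlap, and a two-sided exact permutation test gave p = 0.1 each and 0.1 after Benjamini-Hochberg adjustment, the smallest that 3 libraries against 3 allow.

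The count table holds several transcript rows per symbol without transcript names, so rows were ranked by their total count within a gene. They are estimates of how reads divide between transcripts, and were described without a test across genes. Abcg1, Mylip, Abca1 and Npc2 rested on 1 row for over 95% of their counts. The rise of Soat1 lay in its first row, from 105.7 ± 4.61 to 131.0 ± 9.14 CPM (SD, n = 3 each), whereas the second row, nearly as abundant, was at 97.8 ± 3.06 and 102.0 ± 7.59 CPM with overlapping libraries. The first row held 50.4% ± 0.660 of the Soat1 counts in shNC and 54.2% ± 0.622 in shTrem2 (SD, n = 3 each).

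The first row of Lipa was lower in every shTrem2 library, at 426.1 ± 15.6 CPM against 329.1 ± 23.6 CPM (SD, n = 3 each). The second row had the opposite sign, with 43.1 ± 8.37 CPM in shTrem2 against 32.8 ± 7.15 CPM in shNC, and the libraries overlapped. For Apoe the first row went from 6.87 ± 0.960 to 3.71 ± 0.695 CPM, a log2 ratio of -0.89 that is larger than that of the sum, while the third row, at 0.270 ± 0.163 and 0.660 ± 0.140 CPM, was higher in every shTrem2 library. The third row of Apoe rested on between 2.23 and 15.1 estimated counts. For Npc1 the first row had a log2 ratio of 0.34 and the second, with overlap, one of 0.17. The first and second rows of Nr1h3 did not overlap between the groups, but in shNC the first row was at 0 in replicate 3 and the second in replicate 2. For a single row the two-sided exact permutation p could not go below 0.1.

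**Figure D3:**
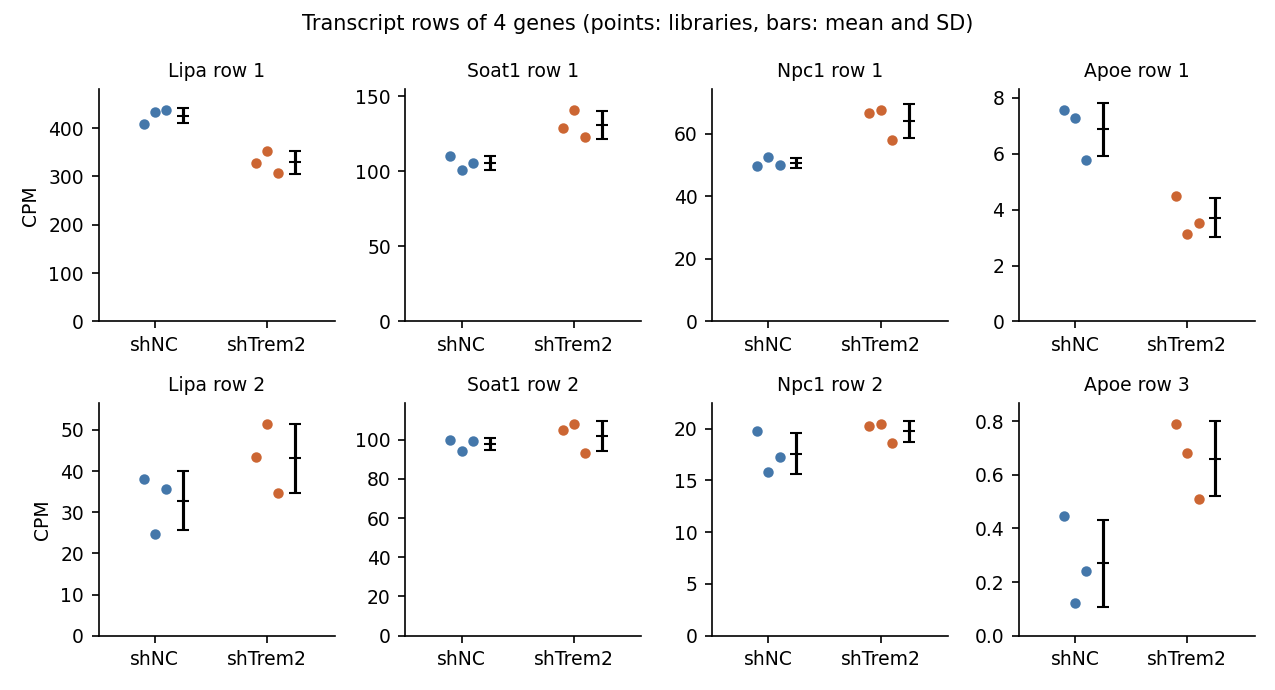
CPM per library of 2 transcript rows for each of Lipa, Soat1, Npc1 and Apoe, with bars for mean and SD (n = 3); each panel has its own axis, which starts at 0. The upper panels show the most abundant row, with no overlap between groups, and the lower panels show a less abundant row, where only that of Apoe is without overlap.

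Genes around this route were taken from 9 lists with 112 genes in all, of which 86 were tested. Of these, 61 (70.9%) had an FDR under 0.05, 27 higher and 34 lower in shTrem2, and 20 (23.3%) were DEGs, 7 higher and 13 lower. The corresponding shares of all tested genes were 28.8% higher and 28.6% lower at that FDR, and 9.46% and 12.4% as DEGs.

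Other LXR target genes leaned upward. Of 17 listed, 10 were tested, 6 were higher and 1 lower at an FDR under 0.05, with a median log2 fold change of 0.37. Pltp, the phospholipid transfer protein, was at 42.9, 48.1 and 60.5 CPM in shNC and at 111.2, 122.0 and 98.8 CPM in shTrem2 (log2 fold change 1.13, adjusted p = 7.74e-07 from edgeR). Scd1, the stearoyl-CoA desaturase, rose from 61.3 ± 3.19 to 122.0 ± 23.8 CPM (SD, n = 3 each; log2 fold change 0.99), a call lost with limma on FPKM (adjusted p = 0.111 with a pseudocount of 1). Srebf1 (0.41), Scd2 (0.48), Acsl3 (0.38) and Lpcat3 (0.37), named after their values were seen, passed at under 1.5-fold. Lpcat3 was also lost with limma on FPKM (0.19, adjusted p = 0.0731 with a pseudocount of 1), which left 4 genes higher. Lpl had a log2 fold change of -0.07 and Fasn one of -0.08, neither past the test. The gene that fell, Apoc2, was at 1.43 ± 0.389 and 0.658 ± 0.297 CPM (SD, n = 3 each), and its call was lost without shNC replicate 1, shTrem2 replicate 2 or shTrem2 replicate 3. Cd5l, a macrophage survival factor, had 7, 13 and 11 counts in shNC and 0, 1 and 1 in shTrem2 and did not pass the filter on low counts. Without shTrem2 replicate 1, 2 or 3 it was tested and called, alone or with Smpdl3a or Lpl, and the lower genes numbered 2. Cd5l entered those fits only through shNC, where it was high, so its calls there add no support. In these libraries Abcg1, Pltp, Srebf1 and Scd1 were higher in shTrem2 while the LXR targets Mylip and Apoe were lower. Apoc2, with few counts, was lower too, and Cd5l was not tested in the main fit.

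Among 11 receptor partners and coregulators, 8 were tested. Rxra, an RXR partner of the LXRs, rose from 1.24 ± 0.243 to 3.26 ± 0.416 CPM (SD, n = 3 each; log2 fold change 1.39, adjusted p = 3.59e-04 from edgeR). Rxrb, far more abundant at 106.5 ± 4.07 CPM in shNC, had a log2 fold change of -0.16, which without shNC replicate 3 was -0.13 (adjusted p = 0.0686 from edgeR). The fatty acid receptor Ppard (-0.53) also fell, a call lost with limma on FPKM (adjusted p = 0.0585 with a pseudocount of 1), and Pparg had almost no counts. The count of higher genes was 1, and 2 without shTrem2 replicate 2, where Med1 entered. Of the 7 oxysterol and sterol side-chain enzymes, 4 were tested and 3 of them fell: Hsd3b7 (-0.64), Cyp27a1 (-0.58), which makes 27-hydroxycholesterol, and Sult2b1 (-2.00), which was near the detection limit. Ebp, a cholesterol synthesis enzyme, rose (0.72). Ch25h, which makes 25-hydroxycholesterol, was at 0 counts in every library.

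**Figure D4:**
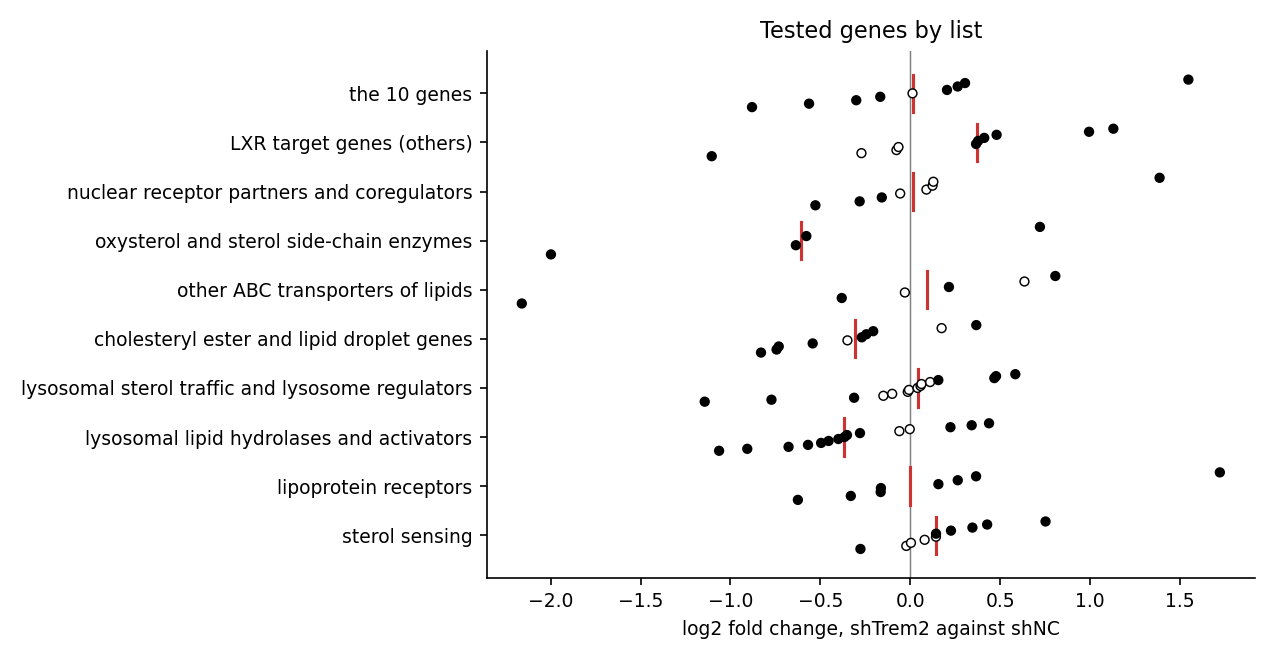
Log2 fold change of each tested gene, shTrem2 against shNC, by list; filled points have an FDR under 0.05 from edgeR, open points do not, and red bars are list medians. The medians range from -0.61 (oxysterol and sterol side-chain enzymes) to 0.37 (other LXR target genes).

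Genes of cholesteryl esters and lipid droplets, which include both storage and breakdown genes, leaned downward, as did lysosomal lipid hydrolases and activators. Of 10 tested genes of cholesteryl esters and lipid droplets, 7 fell and 1 rose, with a median log2 fold change of -0.31. Soat2, the other sterol acyltransferase, had 10.7 ± 0.813 CPM in shNC against 6.03 ± 1.90 CPM with the knockdown (SD, n = 3 each; log2 fold change -0.83), in the opposite direction to the far more abundant Soat1. The droplet coat gene Plin3 (-0.74) and the triglyceride lipase Pnpla2 (-0.73) were DEGs too, and the cholesteryl ester hydrolase Nceh1 fell by less (-0.24). The gene that rose was the lipase Lipe (0.37, adjusted p = 0.00359 from edgeR). Plin2, the droplet coat gene often used as a readout of lipid loading, had a log2 fold change of 0.17 (adjusted p = 0.0831 from edgeR). Leaving out shTrem2 replicate 3 gave 0.26 (edgeR, adjusted p = 0.00276), which moved the count of higher genes to 2.

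Of 15 tested lysosomal lipid hydrolases and activators, 10 fell and 3 rose, with a median log2 fold change of -0.37, close to the -0.30 of Lipa. The list also held the peptidase Tpp1 (-0.50), counted among the 10, and the membrane protein Cln3 (-0.06), which was not called. The palmitoyl thioesterase Ppt1 was at 463.4, 463.0 and 479.9 CPM in shNC and at 222.1, 222.8 and 228.0 CPM in shTrem2 (log2 fold change -1.06, adjusted p = 4.75e-10 from edgeR). The lysosomal phospholipase Pla2g15 (-0.91) and the beta-galactosidase Glb1 (-0.68) were the other DEGs. The ceramidase Asah1 (0.34), the galactosidase Gla (0.44) and the saposin precursor Psap (0.22) rose, of which Gla lost its call with limma on FPKM (adjusted p = 0.0619 with a pseudocount of 1).

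Sterol traffic between lysosome and other membranes was mixed, with 4 of 15 tested genes higher and 3 lower. The higher genes numbered 2 with limma on FPKM, where Stard3 and Osbpl1a were lost, and 6 without shTrem2 replicate 3, and the lower genes numbered 5 with library size only. Gramd1a and Gramd1b, which carry cholesterol from the plasma membrane to the endoplasmic reticulum, fell by 1.14 and 0.77 on the log2 scale. Gramd1a went from 152.6, 148.8 and 132.5 CPM in shNC to 62.5, 68.8 and 65.1 CPM in shTrem2. Scarb2, a lysosomal membrane protein with a cholesterol tunnel, rose (0.58), as did Tmem97, a binding partner of Npc1 (0.48). The lysosomal regulators Tfeb (0.04), Tfe3 (-0.01) and Mitf (-0.10) did not pass the test.

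Of 6 tested lipid transporters of the ABC family other than Abca1 and Abcg1, 2 rose and 2 fell, with 1 higher for limma on FPKM, where Abca3 was lost. Abcg4, a close relative of Abcg1, fell from 4.69 ± 1.96 to 1.04 ± 0.450 CPM (SD, n = 3 each; log2 fold change -2.16, adjusted p = 1.49e-04 from edgeR), and Abca7, a close relative of Abca1, fell by 0.38 on the log2 scale. Among 10 sterol-sensing genes, 5 rose and 1 fell. Insig1, which holds the SREBP complex in the endoplasmic reticulum and is itself an SREBP target, rose from 73.1 ± 7.61 to 122.9 ± 6.61 CPM (SD, n = 3 each; log2 fold change 0.75). Srebf2 (0.14) rose as well, but did not pass the test without shNC replicate 2, shNC replicate 3 or shTrem2 replicate 1, and the fall of Insig2 (-0.28) was lost without shNC replicate 1 or shTrem2 replicate 1 and with the effective-length offset (adjusted p = 0.209 from edgeR). With limma on FPKM 3 genes of this list were higher and 0 lower, since Srebf2, Scap and Insig2 were lost.

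Lipoprotein receptors split evenly, with 4 higher and 4 lower of 8 tested. Cd36 rose from 0.664 ± 0.141 to 2.21 ± 0.399 CPM and Lrp1, a receptor for Apoe-bearing particles, from 580.1 ± 14.4 to 747.5 ± 16.7 CPM (SD, n = 3 each). Cd36 had few counts in shNC (9, 11 and 15) and was not tested when at least 10 counts were required in every library. The scavenger receptor Msr1 fell (-0.33), a call lost with the effective-length offset (-0.11, adjusted p = 0.0828 from edgeR). The calls of Lrp8, Lrpap1 and Scarb1 were each lost when single libraries were left out, and without shNC replicate 3 or shTrem2 replicate 1 the lower genes numbered 2.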

How the data were processed

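Reads were trimmed (fastp), aligned with respect to strand (HISAT2) and assembled (StringTie) by the authors; the labels name GRCm39, and the counting tool and annotation release are not given in the sources used here. The authors deposited estimated counts per transcript row, unscaled, with no gene symbol on 59568 of 278369 rows, and FPKM per gene identifier. The authors' group means were not used. Estimated counts were summed per symbol and rounded. The unnamed rows, 0.908% to 1.12% of counts, were left out. For counting error alone, a count of 0 is compatible with 3 counts, which is 0.153 to 0.189 CPM.

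Libraries were grouped by the shRNA in their labels. The main test was edgeR 4.0.16 (TMM, filterByExpr, glmQLFit, glmQLFTest, no covariates) in R 4.3.3, with Benjamini-Hochberg adjustment over 13528 genes. DEGs had an FDR under 0.05 and a fold change over 1.5. Standard errors are the log2 fold change over the root of F. Replicate pairs differed by more than counting noise, with a mean chi-square per gene between 2.54 and 10.0. DESeq2 1.42.0, limma 3.58.1, other scalings, filters, thresholds, a replicate block, omission of each library, limma on log2(FPKM + 1) and log2(FPKM + 0.1), and an effective-length offset (count divided by FPKM, where all counts were at least 5 and FPKM at least 0.5) were alternatives.

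The genes and lists were chosen with earlier results of these data known, so no list was tested as a set. Named in the text are the 10 genes, Trem2, and up to 3 DEGs per list with the largest change and a mean log2 CPM of at least 1; other listed genes were named after their values were seen. The planned search for genes correlated with Abca1 was left out, since Abca1 did not pass the filter. Some listed genes are not reported here.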

Additional observations from a re-analysis of the deposited data

How the results depend on the processing

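The 9 tested genes kept direction and side of the FDR threshold of 0.05 under all alternatives, except Nr1h2 (above) and Npc2. Npc2, which was not called in any fit, was below 0 with upper quartile normalization (-0.00708), library size only (-0.0220), limma on log2(FPKM + 1) (-0.0311) and on log2(FPKM + 0.1) (-0.0313), and without shNC replicate 3 (-0.0121) or shTrem2 replicate 2 (-0.00440); fits that each left out a library reached 0.0313. Those in which Abca1 could be fitted gave between -0.14 (without shNC replicate 1) and 0.20 (without shTrem2 replicate 3), with no call. Over the genes named by rule, 450 of 463 refits kept both; the others were 6 of Npc2, 1 of Abca1, 4 of Nr1h2 and 2 of Scd1, with limma on FPKM. The number of the 10 genes that were DEGs and lower was 1, and 2 with library size only, where Apoe entered (-0.60); over fits that each left out a library it ranged from 1 to 2. It was 0 with a fold change over 2 and 4 without a fold threshold, where the higher genes also numbered 4. Among all genes, 1280 DEGs were higher and 1671 lower. A fold change over 2 left 490 and 849, no fold threshold gave 3898 and 3865, and limma on log2(FPKM + 1) gave 852 higher. Leaving out each library gave between 1180 and 1380 higher and between 1597 and 1751 lower. Of the other listed genes, 7 DEGs were higher and 13 lower; a fold change over 2 left 3 and 5, no fold threshold gave 27 and 34, and limma on log2(FPKM + 1) gave 3 higher. Thresholds act by construction, and the pseudocount shrinks low values; other causes were not tested. The replicate numbers did not pair the libraries, since deviations of same-numbered libraries correlated between -0.00441 and 0.00657 and no library correlated best with its own number. With the replicate block, 1264 DEGs were higher and 1647 lower, of the 10 genes 1 and 1, and it changed no call of the 10 genes; of the listed genes 7 and 14 were DEGs, and at the FDR alone Dgat1 was lost and Mcoln1 gained. Depth limits what can be said of group differences in Abca1, Arg1, other listed genes with few counts and the minor transcript rows.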
